A study of Mus musculus with 56 samples.

Results

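The 9 genes described here are the lineage factors and cytokines of conventional helper T cells, followed in regulatory T cells (Tregs, CD4 T cells that depend on the transcription factor Foxp3 and restrain immune responses). They are Tbx21, Bcl6, Stat3, Stat4, Stat6, Ifng, Il4, Il5 and Il13. They were taken by symbol from a table of 55011 gene symbols, and all 9 were found. Of these genes, Il13 was near the floor of detection in every mouse group, Il4 in 16 of 18 mouse groups, Il5 in all 9 spleen groups, and Ifng in 3 mouse groups and in both culture groups. Tbx21, Bcl6, Stat3, Stat4 and Stat6 were near it in none of the 20 groups. A gene is called near the floor in a group where its median count per library was 3 or less.

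RNA was sequenced from Tregs of C57BL/6 mice that all carried vTreg53 (labelled Tg+), a transgenic T cell receptor, so that the sorted cells were the clonotype-positive Tregs of one receptor and not the whole Treg pool. Mice were 12 weeks old at week 0, when the diets began, and others were taken after 2, 4, 8 or 16 weeks on a diet abbreviated NCD or on one abbreviated HFD. Tregs were double sorted from spleen (26 libraries) and from visceral adipose tissue (VAT, 25 libraries). Each of the 9 groups per tissue had 3 libraries, except NCD week 4 in spleen and HFD week 4 and NCD week 16 in VAT, which had 2. The culture libraries came from another line, which was PPARgamma-tdT KI/KI and also Foxp3-GFP KI/y, so that reporters mark PPARγ and Foxp3. Those mice received IL-33 injections, and their tdT-positive VAT Tregs were cultured over 3 days. The medium held IL-2 at 2000 U/ml and IL-33 at 10 ng/ml, and Foxp3/GFP-positive cells were sorted again. The 3 control cultures had no interferon-α (IFNα), and the other 2 had 50 ng/ml. The labels do not say whether libraries came from separate animals, so the p-values given here describe spread among libraries, which may be technical.

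In conventional CD4 T cells, T-bet (encoded by Tbx21) and STAT4, which acts downstream of IL-12, drive the type 1 programme and its cytokine interferon-γ (Ifng). STAT6 carries the IL-4 signal into the type 2 programme, whose cytokines Il4, Il5 and Il13 lie in 1 gene cluster and are opened by GATA3. STAT3 carries signals of IL-6, IL-10, IL-21 and IL-23, and Bcl6 is the repressor that specifies follicular helper cells. Tregs can use the same factors: T-bet, STAT3 and Bcl6 have each been tied to Tregs that control the matching kind of response. Tregs of VAT are known for GATA3, the IL-33 receptor and PPARγ.

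All 9 genes had a RefSeq promoter (GRCm38.p6), with 12 listed starts in all. Shown are the 250 bases before the start for the 3 clustered type 2 cytokine genes, of which Il5 was detected in VAT and Il4 and Il13 hardly at all, and for Bcl6, the member with the largest number of STAT-type matches. Il4 lies at chr11:53602982-53618669, Il13 at chr11:53631324-53634702 (both on the minus strand) and Il5 at chr11:53720794-53725106 on the plus strand, with Rad50 between Il13 and Il5. Capitals mark matches, on either strand, to a GATA form or a STAT-type form. The GATA forms searched were AGATAA, the related AGATAG, another spelt TGATAA and a last spelt TGATAG. The STAT-type forms were TTCNNNGAA and the longer TTCNNNNGAA, whose fixed letters read the same on both strands. The Il4 window is that of its outer listed start, chr11:53618666-53618915 on the minus strand.
Il4: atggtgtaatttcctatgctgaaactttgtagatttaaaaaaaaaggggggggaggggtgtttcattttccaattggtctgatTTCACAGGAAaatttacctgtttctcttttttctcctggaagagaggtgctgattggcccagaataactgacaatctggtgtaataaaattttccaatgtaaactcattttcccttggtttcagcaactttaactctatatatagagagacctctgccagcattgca
The Il13 window is chr11:53634703-53634952 on the minus strand.
Il13: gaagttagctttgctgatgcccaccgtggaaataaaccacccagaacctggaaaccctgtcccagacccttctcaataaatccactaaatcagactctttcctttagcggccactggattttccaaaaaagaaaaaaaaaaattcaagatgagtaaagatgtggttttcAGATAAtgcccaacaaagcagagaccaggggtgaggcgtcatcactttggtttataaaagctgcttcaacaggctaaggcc
The Il5 window is chr11:53720544-53720793 on the plus strand.
Il5: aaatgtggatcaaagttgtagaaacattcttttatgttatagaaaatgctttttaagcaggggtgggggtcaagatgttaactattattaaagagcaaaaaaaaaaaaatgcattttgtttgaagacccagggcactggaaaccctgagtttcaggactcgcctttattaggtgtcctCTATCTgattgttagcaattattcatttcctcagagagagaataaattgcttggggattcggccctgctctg
The Bcl6 window is that of its inner listed start, chr16:23981284-23981533 on the minus strand.
Bcl6: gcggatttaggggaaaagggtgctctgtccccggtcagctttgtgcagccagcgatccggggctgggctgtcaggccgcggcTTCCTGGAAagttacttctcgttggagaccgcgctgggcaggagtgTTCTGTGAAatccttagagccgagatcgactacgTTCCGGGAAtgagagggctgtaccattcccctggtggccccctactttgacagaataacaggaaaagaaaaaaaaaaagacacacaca
The Il5 and Il13 windows each held 1 GATA form, 72 to 67 bases before the Il5 start and 81 to 76 bases before the Il13 start. The window of the other listed Il4 start (chr11:53617339-53617588), not printed, also held 1, TGATAG at 80 to 75 bases before that start. The Bcl6 window held 3 matches to TTCNNNGAA and the Il4 window 1 match to TTCNNNNGAA. Of 32851 promoter windows of this length, 26.5% held a GATA form, 7.02% held TTCNNNGAA and 5.85% held TTCNNNNGAA. A match describes the letters only.

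Spleen libraries held 3248686 to 5826965 counts, those of VAT 3319873 to 6091439, and the cultures 5408696 to 8764390. A count of 3 was therefore worth 0.515 to 0.923, 0.492 to 0.904 and 0.342 to 0.555 CPM (counts scaled by the library total) in them. Intervals and floors of this kind cover counting error only, since reads were amplified without molecular identifiers. All 8 T cell and Treg markers were above the floor in spleen, VAT and culture by their medians. The summed level of 9 immediate early and heat shock genes was 8120 to 26054 CPM in VAT against 416 to 937 CPM in spleen, and its part in the tissue differences below was not tested. Spleen libraries carry the VAT tissue label, and titles set the tissue. In bulk samples, fewer cells that make a transcript and less transcript per cell cannot be told apart.

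**Figure D1:**
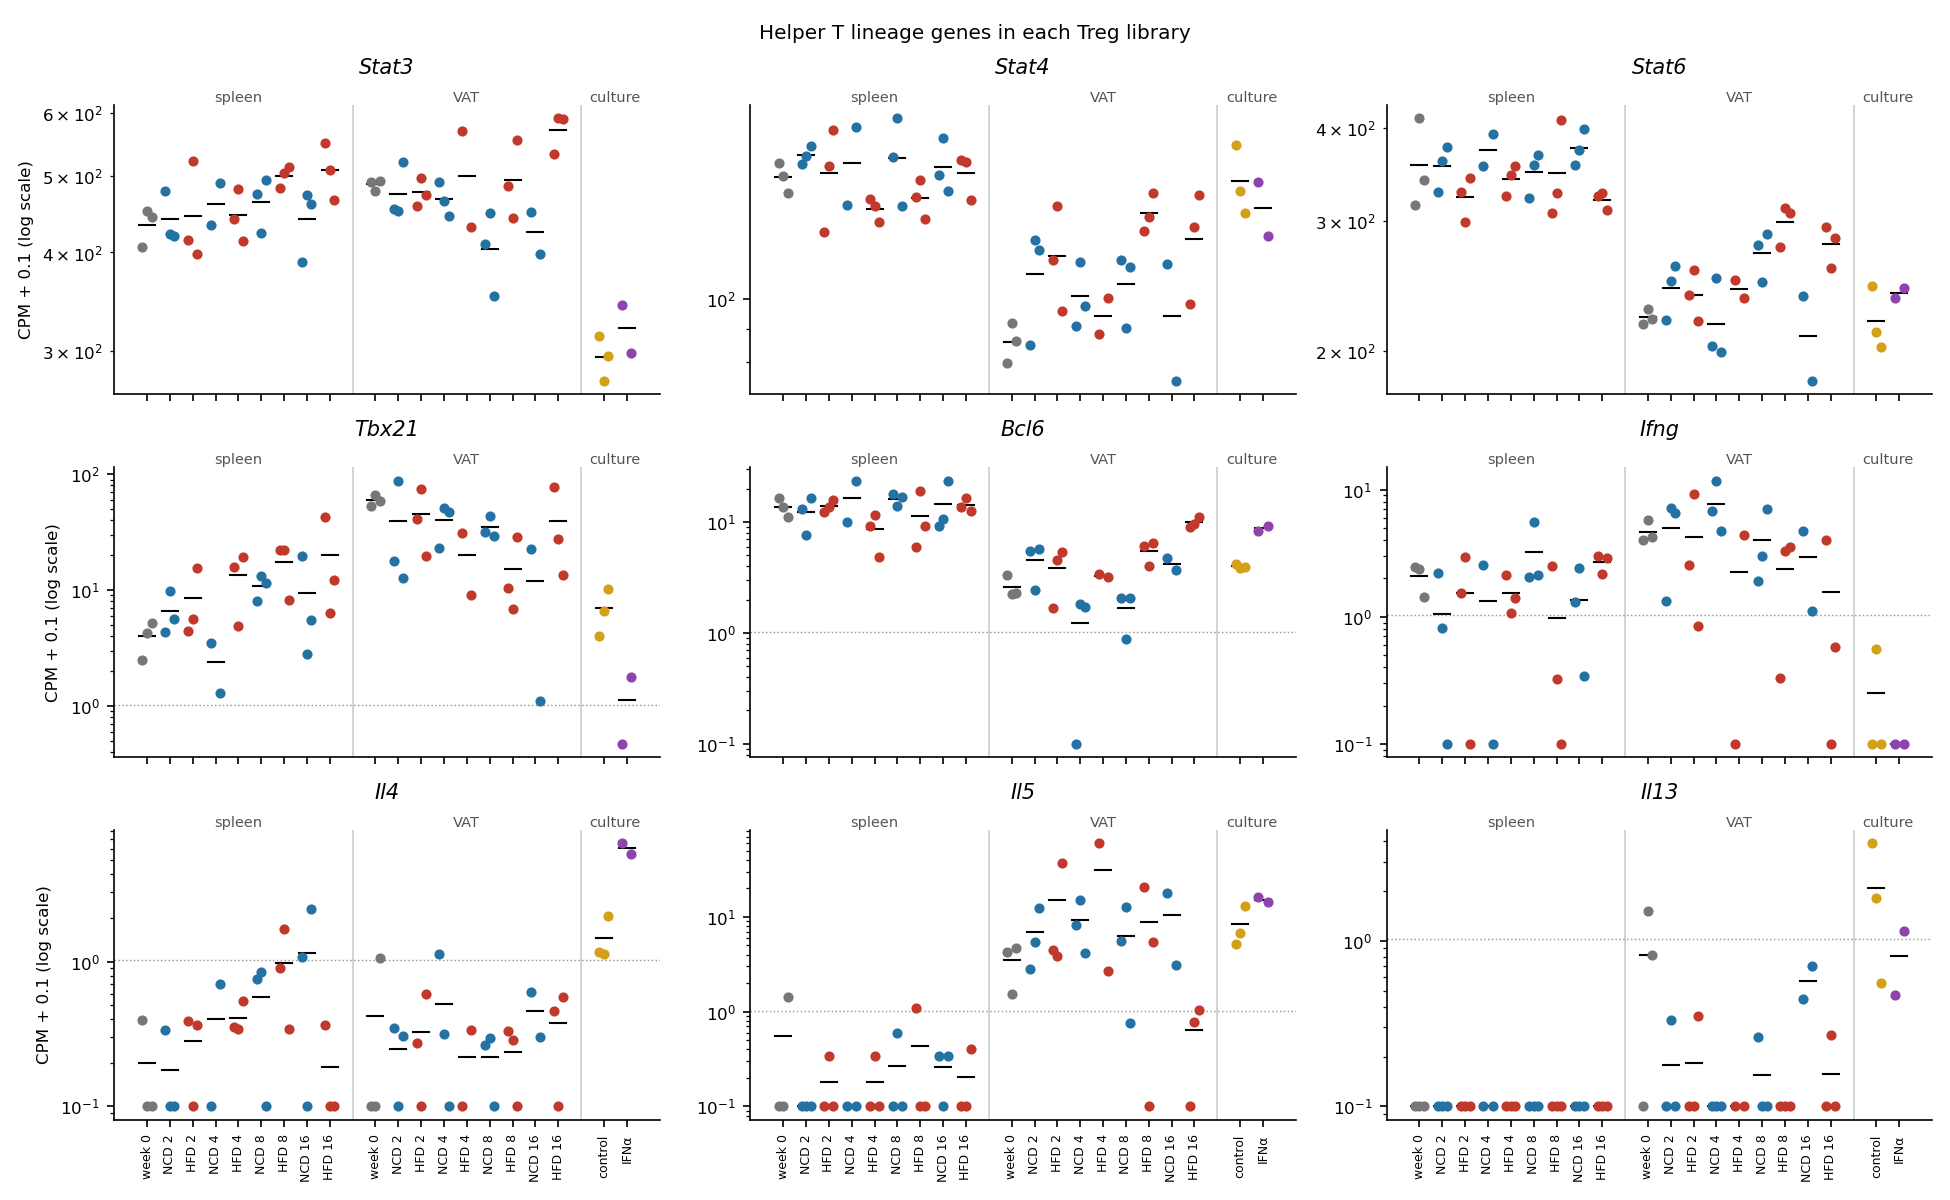
CPM of each gene (plus 0.1, log axis) in every library by group, with spleen, VAT and culture from left to right. Points are libraries (grey week 0, blue NCD, red HFD, yellow control culture, purple IFNα), bars are group means, and the dotted line, in panels with values under 3 CPM, is 3 counts in the shallowest library. The 3 Stat genes lie in a narrow band, Tbx21, Ifng and Il5 scatter widely within groups, and Il13 is at 0 in all 26 spleen libraries.

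Per kilobase of exon, the Stat genes were the most abundant of the 9. Exon length here is that of all annotated exons of a gene merged, 9527 bases for Stat3 and 4402 bases for Stat6. Stat6 had the highest median level in spleen (78.1 CPM per kb), followed by Stat3 (48.6 CPM per kb) and Stat4 (39.9 CPM per kb). The order was the same in VAT, with 56.5, 49.6 and 28.9 CPM per kb. The ranges of Stat6 and Stat3 over libraries overlapped in VAT (41.4 to 70.8 and 37.0 to 62.1 CPM per kb) and did not in spleen (67.9 to 93.7 and 40.8 to 57.8 CPM per kb). Tbx21 came next, at a median of 11.7 CPM per kb in VAT and 2.83 CPM per kb in spleen. Bcl6, Ifng and Il5 followed. In VAT, Ifng (3.00 CPM per kb) and Il5 (2.86 CPM per kb) had similar medians and overlapping ranges, and Bcl6 stood at 0.495 CPM per kb. In spleen Bcl6 stood at 1.97 CPM per kb and Ifng at 1.54 CPM per kb, again with overlapping ranges. The order of Stat6 and Stat3 rests on the exon length. In CPM Stat3 was above Stat6, with medians of 463 and 344 CPM in spleen and 473 and 249 CPM in VAT.

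The cytokine genes near the floor had few reads in all. Il13, an effector cytokine of type 2 immunity, had 0 counts in all 26 spleen libraries, which allows up to 0.923 CPM in the shallowest of them. In VAT its counts were 0 in 17 of 25 libraries and 8 at most, with 20 counts over all VAT libraries. The highest values, 1.42 and 0.724 CPM, were both from week 0, where the third library had 0. Il4, the cytokine that drives type 2 differentiation, had 43 counts over the 26 spleen libraries and 29 over the 25 VAT libraries. Its highest values were 2.19 CPM in an NCD week 16 spleen library and 1.02 CPM in an NCD week 4 VAT library. The 2 groups above the floor were spleen NCD week 16 (0.970, 0 and 2.19 CPM) and spleen HFD week 8 (0.804, 1.58 and 0.244 CPM). Il5, the eosinophil growth factor, had 18 counts over the 26 spleen libraries and 0 in 18 of them. Il4 and Il13 were too low to be tested in either tissue, and Il5 was too low in spleen alone.

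Against spleen, VAT Tregs without HFD (week 0 and the NCD weeks, 14 libraries per tissue) had more Tbx21, Ifng and Il5 and less Bcl6, Stat4 and Stat6. Across all genes 59.1% were called in this comparison at an adjusted p under 0.05 (edgeR's quasi-likelihood test with Benjamini-Hochberg adjustment over 15601 genes), and 7 of 7 tested members were called. With so many genes called, a call here sets no member apart. With HFD (11 VAT and 12 spleen libraries) 47.4% of genes and 4 of 7 members were called.

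Tbx21, the type 1 master regulator (chr11:97098071-97115331, minus strand), ranged from 0.999 to 88.2 CPM with a median of 37.8 CPM in VAT without HFD, and from 1.20 to 19.6 CPM with a median of 5.25 CPM in spleen. Most VAT libraries lay above the spleen range, and the ranges overlapped through low VAT libraries. The log2 fold change, VAT over spleen, was 2.76 ± 0.43 (SE; edgeR adjusted p = 1.39e-06). With HFD the medians were 27.4 CPM in VAT and 13.7 CPM in spleen, and the log2 fold change was 1.16 ± 0.43 (edgeR adjusted p = 0.0257). That second call was lost without any 1 of 4 VAT HFD libraries (week 2 replicate 2, week 4 replicate 2, week 8 replicate 3 and week 16 replicate 1), with log2 fold changes of 0.89 to 1.02. It was also lost when library totals alone scaled the counts (0.95, adjusted p = 0.0608).

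Ifng (chr10:118441046-118445892, plus strand), the cytokine under T-bet control in type 1 cells, ranged from 0.999 to 11.7 CPM with a median of 4.64 CPM in VAT without HFD, and from 0 to 5.46 CPM with a median of 1.99 CPM in spleen. The log2 fold change was 1.75 ± 0.53 (edgeR adjusted p = 0.00460), and the ranges overlapped. With HFD the medians were 2.46 and 1.73 CPM, and the difference did not pass the test (0.88 ± 0.60, edgeR adjusted p = 0.231). NK and CD8 cells are other producers of interferon-γ. Their 9 markers summed to 15.6 to 82.6 CPM in VAT and 18.6 to 42.8 CPM in spleen, led by Cd8b1. Their part in the Ifng and Tbx21 values was not tested.

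Bcl6 (chr16:23965052-23988852, minus strand) ran the other way. It ranged from 0 to 5.61 CPM with a median of 2.15 CPM in VAT without HFD, and from 7.61 to 23.6 CPM with a median of 13.7 CPM in spleen, so that every spleen library lay above every VAT library. The log2 fold change was -2.38 ± 0.24 (SE; edgeR adjusted p = 1.48e-11). With HFD the VAT range was 1.58 to 11.1 CPM and the spleen range 4.77 to 19.0 CPM, so the tissues overlapped. The log2 fold change there was -1.005 ± 0.26 (edgeR adjusted p = 0.00109).

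The Stat genes differed less between tissues than Tbx21 or Bcl6 did in fitted size. Stat4 (chr1:51987148-52107189, plus strand) ranged from 74.7 to 123 CPM in VAT without HFD and from 139 to 189 CPM in spleen, with no overlap (log2 fold change -0.49 ± 0.071, edgeR adjusted p = 9.44e-08). Stat6 (chr10:127642986-127660957, plus strand) ranged from 182 to 288 CPM in VAT and from 314 to 412 CPM in spleen, again with no overlap (-0.43 ± 0.051, edgeR adjusted p = 9.34e-10). Groups lay apart in this way, with VAT lower, for Bcl6, Stat4 and Stat6 and for 7.47% of all genes tested. These ranges are in CPM, which is scaled by library totals. On that scale the median log2 fold change of all genes was -0.26, against -0.04 in the fit with normalization factors. Overlap was not tested on the scale of the fit. With HFD neither gene passed the test: Stat4 was at -0.13 ± 0.078 (edgeR adjusted p = 0.177) and Stat6 at -0.12 ± 0.056 (edgeR adjusted p = 0.0686). Both were called with HFD when library totals alone set the scale, at -0.35 and -0.34.

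Stat3 (chr11:100885098-100939540, minus strand) had nearly equal CPM in the tissues, 353 to 520 CPM in VAT without HFD and 389 to 493 CPM in spleen. Its fitted log2 fold change of 0.22 ± 0.050 (edgeR adjusted p = 1.52e-04) came with the normalization factors, which ran from 0.870 to 1.11 over the libraries. By library totals alone it was 0.01 (adjusted p = 0.914). That scaling moves the median of all genes from -0.04 to -0.26 on the log2 scale and the share of higher calls from 49.2% to 32.2% (with HFD from -0.06 to -0.28 and from 47.0% to 26.1%), so no tissue direction is given for Stat3. With HFD the Stat3 value was 0.32 ± 0.055 (edgeR adjusted p = 4.03e-06), and by library totals 0.10 (adjusted p = 0.102). Strand was not stated for the counting, and the end of Stat3 overlaps Stat5a on the other strand, which had medians of 172 CPM in spleen and 125 CPM in VAT.

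Il5 was the type 2 cytokine gene with signal in VAT. Without HFD it ranged from 0.655 to 18.0 CPM with a median of 4.99 CPM in 14 VAT libraries, and from 0 to 1.34 CPM in 14 spleen libraries, of which 10 had 0 counts. All but the lowest VAT library lay above the spleen range, and the difference was called (edgeR adjusted p = 2.36e-07). The fitted log2 fold change, 6.18 ± 0.88, averages over 2 spleen groups with no Il5 count in any library and so is no measure of size. With HFD the VAT range was 0 to 59.9 CPM and the spleen range 0 to 1.00 CPM (edgeR adjusted p = 1.08e-05). Group 2 innate lymphoid cells are another source of this cytokine. Their 5 markers summed to 39.2 to 117 CPM in VAT and 17.6 to 59.4 CPM in spleen, led in both by Il9r, a receptor gene that T cells also express, and their part in the Il5 values was not tested.

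**Figure D2:**
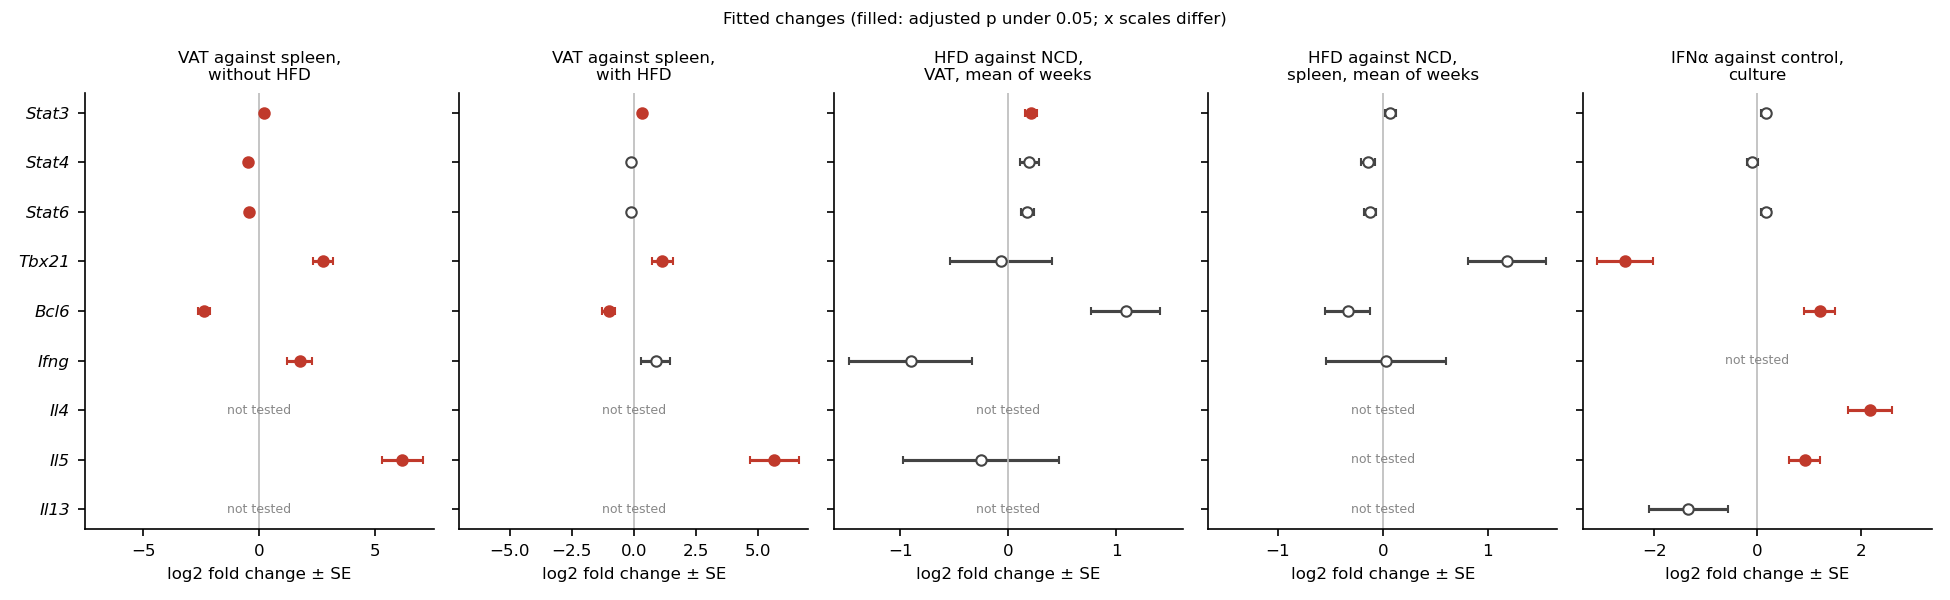
Fitted log2 fold changes ± SE of the members in 5 comparisons, with filled points for an adjusted p under 0.05 and a separate x scale per panel. Tbx21 is above 0 and Bcl6 below 0 in VAT against spleen, 1 member (Stat3) is called for diet in VAT, none in spleen, and 4 in culture. Genes marked as not tested had too few counts.

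The diet comparison asks which of these genes differed between HFD and NCD in the same tissue and week. No member was called in any single week in either tissue by edgeR with TMM scaling and the filter on low counts. With library totals alone Stat3 (0.43, adjusted p = 0.0213) and Stat6 (0.41, adjusted p = 0.0358) were called in VAT at week 16, and with no filter Tbx21 was called in spleen at week 4 (adjusted p = 0.0201). In VAT 0.0565%, 0.0212%, 1.33% and 9.24% of all genes were called at weeks 2, 4, 8 and 16, so a count of 0 of 7 members is near the background. By library totals alone the share of higher calls at week 16 was 63.4% and not 46.7%. At an unadjusted p under 0.05, 0, 1, 2 and 3 members passed at these weeks, against 10.1%, 9.78%, 13.1% and 21.7% of all genes. DESeq2 called 0 in VAT in each week. In spleen 0.0272%, 1.24%, 0% and 0% of genes were called. There 0, 2, 0 and 1 of 6 members passed an unadjusted p under 0.05, against 9.55%, 9.63%, 4.88% and 6.64% of all genes, and DESeq2 called 1, Tbx21 at week 4.

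Averaged over the 4 weeks, Stat3 was the 1 member called in VAT, where 4.20% of genes were called, and it was higher with HFD. It ranged from 430 to 592 CPM with a median of 497 CPM with HFD (11 libraries) and from 353 to 520 CPM with a median of 450 CPM with NCD (11 libraries). The upper end was at week 16, with 532, 592 and 590 CPM against 450 and 398 CPM, and the groups of the mean overlapped. The mean log2 fold change was 0.21 ± 0.057 (edgeR adjusted p = 0.0300). The call was lost without any 1 of 4 libraries (HFD week 2 replicate 2, HFD week 4 replicate 2, HFD week 8 replicate 3 and NCD week 16 replicate 3; 0.16 to 0.20). It was lost too when week 16 was left out (0.18, adjusted p = 0.233). The immediate early and heat shock genes summed to 8120 to 17903 CPM at HFD week 16 and 25956 to 26054 CPM at NCD week 16 in VAT, and their part in the week 16 values was not tested.

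Bcl6 in VAT was the member with the largest mean change with HFD and narrowly missed the threshold. At week 4 it was at 3.31 and 3.08 CPM with HFD and 0, 1.73 and 1.63 CPM with NCD. These were counts of 11 and 13 against 0, 8 and 6. At week 8 it was at 6.02, 3.90 and 6.34 CPM with HFD and 1.97, 0.780 and 1.97 CPM with NCD, or counts of 26, 21 and 33 against 12, 4 and 9. At week 16 it was at 9.01, 9.60 and 11.1 CPM with HFD and 4.66 and 3.60 CPM with NCD, or counts of 51, 56 and 47 against 27 and 18. In each of these 3 weeks every HFD library lay above every NCD library, as was true of 9.91%, 9.86% and 24.6% of all genes, while at week 2 the groups overlapped. The mean log2 fold change was 1.09 ± 0.32 (edgeR adjusted p = 0.0519). DESeq2 called it (adjusted p = 0.00908), as did edgeR with no filter (0.0346) and without any 1 of HFD week 2 replicate 1, NCD week 4 replicate 2 and NCD week 4 replicate 3 (0.0316 to 0.0466). B cells also express Bcl6, and the 6 B cell markers summed to 320 to 333 CPM in VAT at NCD week 16 and to 1638 to 2450 CPM at HFD week 16, with Ighm as the leading gene. At week 8 their sums overlapped, and at week 4 they were 654 to 761 CPM with HFD and 821 to 5836 CPM with NCD, and their part in the Bcl6 values was not tested.

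In spleen the Bcl6 values did not follow this order. With HFD they ranged from 4.77 to 19.0 CPM with a median of 12.5 CPM, and with NCD from 7.61 to 23.6 CPM with a median of 13.9 CPM. The mean log2 fold change was -0.34 ± 0.21 (edgeR adjusted p = 0.503). The difference of the mean diet effects between tissues was tested directly, and 2.44% of genes and 2 of 7 members were called. It was 1.41 ± 0.37 for Bcl6 (edgeR adjusted p = 0.0286), positive in the direction of a larger effect in VAT. This call was lost without any 1 of 5 libraries, with values of 1.23 to 1.42 and adjusted p of 0.0510 to 0.0951. These were spleen NCD week 4 replicate 2, spleen NCD week 16 replicate 3, both VAT HFD week 4 libraries and VAT NCD week 16 replicate 3.

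Stat6 was the other member whose diet effect differed between tissues (0.29 ± 0.080, edgeR adjusted p = 0.0405). In VAT it ranged from 220 to 312 CPM with HFD (median 259 CPM) and from 182 to 288 CPM with NCD (median 248 CPM), a mean log2 fold change of 0.18 ± 0.058 (edgeR adjusted p = 0.0876). In spleen it ranged from 299 to 410 CPM with HFD (median 327 CPM) and from 322 to 398 CPM with NCD (median 360 CPM), a change of -0.12 ± 0.057 (edgeR adjusted p = 0.313). Neither tissue passed on its own. At week 16 spleen HFD libraries (323, 327 and 310 CPM) lay below all NCD libraries (356, 374 and 398 CPM), as in 4.96% of genes. VAT HFD libraries (294, 259 and 284 CPM) lay above both NCD libraries (238 and 182 CPM) at that week, as in 24.6% of genes. By library totals, as in CPM, the median log2 fold change of all genes at VAT week 16 was 0.14, against 0.02 in the main fit. The week 16 difference between tissues was 0.49 ± 0.16 (edgeR adjusted p = 0.0728). In that comparison 4.46% of genes and 0 of 7 members were called, 1 member had an unadjusted p under 0.05 (16.4% of genes), and DESeq2 called 1, Stat6 (0.0409). The call of the difference was lost with no filter on low counts (0.30, adjusted p = 0.0964) and without any 1 of 21 libraries, with values of 0.25 to 0.29. For Stat4 the difference was 0.32 ± 0.11 and did not pass (edgeR adjusted p = 0.123). Its mean change with HFD was 0.20 ± 0.089 in VAT (edgeR adjusted p = 0.257) and -0.14 ± 0.067 in spleen (edgeR adjusted p = 0.347). At VAT week 8 its HFD libraries (127, 134 and 145 CPM) lay above all NCD libraries (115, 90.1 and 112 CPM), as in 9.86% of genes. For Tbx21 the difference between tissues was -1.26 ± 0.65 and did not pass (edgeR adjusted p = 0.373). With no filter it was called (-1.26, edgeR adjusted p = 7.79e-06), while DESeq2 gave 0.277.

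**Figure D3:**
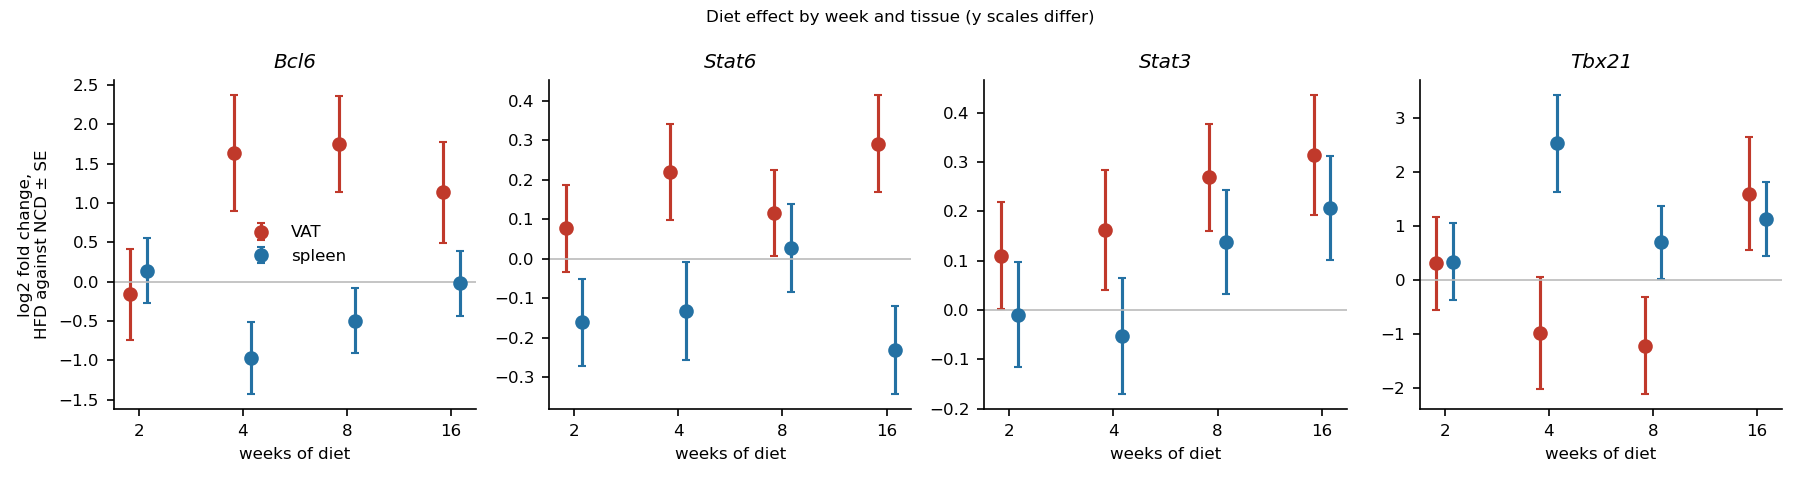
Log2 fold change ± SE, HFD against NCD, at each week in VAT (red) and spleen (blue) for 4 members, with a separate y scale per panel. Bcl6 in VAT stands at 1.64, 1.75 and 1.14 at weeks 4, 8 and 16 and at -0.16 at week 2, Stat6 is above 0 in VAT at each week and below 0 in spleen at weeks 2, 4 and 16, and Tbx21 has no common sign in VAT. None of the weekly values passed the edgeR test with TMM scaling and the filter on low counts.

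Tbx21 did not follow the diet in VAT. Its values with HFD were 40.6, 74.8 and 19.7 CPM at week 2, 31.0 and 9.0 CPM at week 4, 10.4, 6.69 and 28.4 CPM at week 8, and 77.6, 27.4 and 13.5 CPM at week 16. With NCD they were 17.7, 88.2 and 12.7 CPM at week 2, 22.8, 51.0 and 47.4 CPM at week 4, 31.7, 43.9 and 29.0 CPM at week 8, and 22.6 and 0.999 CPM at week 16. Only at week 8 did the groups lie apart, with HFD lower, as in 8.42% of all genes. The mean log2 fold change was -0.07 ± 0.47 (edgeR adjusted p = 0.980). In spleen the median was 13.7 CPM with HFD (4.29 to 42.3 CPM) and 5.49 CPM with NCD (1.20 to 19.6 CPM). The spleen mean change was 1.18 ± 0.37 and did not pass (edgeR adjusted p = 0.128), where 0.933% of genes were called. DESeq2 called it (adjusted p = 0.0290), and so did edgeR with no filter (0.00396) and without NCD week 16 replicate 1 (0.0271). Tbx21 was the member DESeq2 called in that comparison, and 3 of 6 members had an unadjusted p under 0.05 in edgeR, against 14.3% of all genes. At week 4 the spleen HFD libraries of Tbx21 (15.7, 4.82 and 19.3 CPM) lay above both NCD libraries (3.37 and 1.20 CPM), as in 13.8% of genes, with a log2 fold change of 2.54 ± 0.90 (edgeR adjusted p = 0.252; DESeq2 0.0493).

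Ifng and Il5 had no called diet effect in VAT. Ifng was 0 to 9.11 CPM with HFD (median 2.46 CPM) and 0.999 to 11.7 CPM with NCD (median 4.66 CPM), a mean log2 fold change of -0.90 ± 0.57 (edgeR adjusted p = 0.479). Of the 9 NK and CD8 cell markers 6 were tested, and 2, Klrk1 and Klrb1c, were called lower with HFD. In the mean over weeks 4.20% of all genes were called in either direction. The directions of the remaining tested markers are not given here. The part of the NK and CD8 cell markers in the Ifng values was not tested. At week 4 both HFD libraries (0 and 4.26 CPM of Ifng) lay below all NCD libraries (6.64, 11.7 and 4.61 CPM), as in 16.8% of genes. Il5 at week 16 was 0, 0.685 and 0.947 CPM with HFD and 18.0 and 3.00 CPM with NCD, with no overlap, as in 12.9% of genes. The highest Il5 level of all was 59.9 CPM in an HFD week 4 library whose partner had 2.60 CPM. The week 16 log2 fold change was -4.40 ± 1.81 (edgeR adjusted p = 0.158), and it was called when only the 2 groups compared were fitted (adjusted p = 0.0308). The counts behind it were 0, 4 and 4 with HFD and 104 and 15 with NCD, so it is no firm measure of size. Over all weeks the change was -0.25 ± 0.72 (edgeR adjusted p = 0.923). The innate lymphoid cell markers summed to 39.2 to 86.4 CPM at HFD week 16 against 107 to 115 CPM at NCD week 16. Of these 5 markers Il9r was called lower (35.5 against 105 CPM) and Il17rb higher (11.4 against 1.78 CPM), and the median log2 fold change over the 5 was 1.85 (edgeR). Their part in the Il5 values was not tested.

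From week 0 to NCD week 16 no member was called in VAT, where 0.713% of genes were, or in spleen, where 0.654% were. At an unadjusted p under 0.05, 1 of 7 members passed in VAT (13.1% of all genes) and 0 of 6 in spleen (9.89%), and DESeq2 called 0 in both. The member at that level was Tbx21 in VAT, with 53.6, 66.7 and 58.1 CPM at week 0 and 22.6 and 0.999 CPM at NCD week 16 (log2 fold change -2.26 ± 1.06, edgeR adjusted p = 0.378). Both later libraries lay below all 3 early ones, as in 21.6% of genes. So did those of Stat3, at 450 and 398 CPM against 491, 479 and 492 CPM (log2 fold change -0.15 ± 0.12, edgeR adjusted p = 0.647), and the Bcl6 groups lay apart the other way, as in 14.0%. In spleen Tbx21 was at 2.37, 4.12 and 5.14 CPM at week 0 and 19.6, 2.72 and 5.36 CPM at NCD week 16.

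In culture, Tbx21 was lower and Bcl6, Il4 and Il5 were higher with IFNα, and 4 of 8 tested members were called (3 by DESeq2) where 21.7% of all genes were. Tbx21 was at 3.92, 6.50 and 10.2 CPM in the control cultures and 0.370 and 1.69 CPM with IFNα, with no overlap (log2 fold change -2.56 ± 0.54, edgeR adjusted p = 0.00208). The lowest of these values was 2 counts. Bcl6 was at 4.07, 3.77 and 3.80 CPM in controls and 8.14 and 9.21 CPM with IFNα, again apart (1.21 ± 0.30, edgeR adjusted p = 0.00564). The Bcl6 call was lost without IFNα replicate 2 (1.10, adjusted p = 0.0709).

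Il4 was above the floor in all 5 cultures, which it was not in most mouse libraries. It was at 1.06, 1.03 and 1.98 CPM in controls and 6.47 and 5.45 CPM with IFNα (counts of 7, 9 and 13 against 35 and 42; log2 fold change 2.18 ± 0.43, edgeR adjusted p = 8.92e-04). The call held in each of the 5 fits that left out 1 library and under every other setting tried for this comparison. Il5 was at 5.13, 6.73 and 13.1 CPM in controls and 16.1 and 14.3 CPM with IFNα (0.92 ± 0.30, edgeR adjusted p = 0.0410). The Il5 call was lost with DESeq2 (adjusted p = 0.0622), with library totals alone (adjusted p = 0.0565) and in 4 of the 5 fits that left out 1 library. The innate lymphoid cell markers summed to 54.9 to 72.3 CPM in controls and 74.3 to 79.6 CPM with IFNα, and the NK and CD8 cell markers to 34.7 to 40.0 and 47.9 to 49.9 CPM. The T cell and Treg markers summed to 7424 to 7755 CPM in controls and 6094 to 6198 CPM with IFNα. These sums did not overlap between the arms. Over the 5 cultures of both arms together, Foxp3 was at 538 to 1238 CPM with a median of 1186 CPM. Il2ra was at 1507 to 2715 CPM (median 2642 CPM) and Tnfrsf18 at 1247 to 1906 CPM (median 1444 CPM). Such pooled ranges do not give the arm of each value, so a difference of these markers between arms can lie within them. The mast cell and basophil markers, of cells that also make Il4, summed to at most 1.81 CPM in controls and 1.04 CPM with IFNα. The part of these lists in the culture values was not tested. Groups were apart with IFNα higher, as for these 3 genes, in 21.5% of all genes, and with IFNα lower, as for Tbx21, in 26.8%.

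Il13 was at 3.77, 1.71 and 0.456 CPM in controls and 0.370 and 1.04 CPM with IFNα and did not pass (log2 fold change -1.34 ± 0.77, edgeR adjusted p = 0.244). Stat3 (0.16 ± 0.085, edgeR adjusted p = 0.186), Stat4 (-0.10 ± 0.11, edgeR adjusted p = 0.590) and Stat6 (0.17 ± 0.090, edgeR adjusted p = 0.203) did not pass either. Ifng had 4 counts in 1 control culture and 0 in the other 4 cultures and was not tested. Set beside the mouse libraries, which were of another line and were not tested against the cultures, Stat3 was at 275 to 344 CPM in culture and 353 to 592 CPM in VAT, and Il4 was at 1.03 to 6.47 CPM in culture and 0 to 1.02 CPM in VAT.

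**Figure D4:**
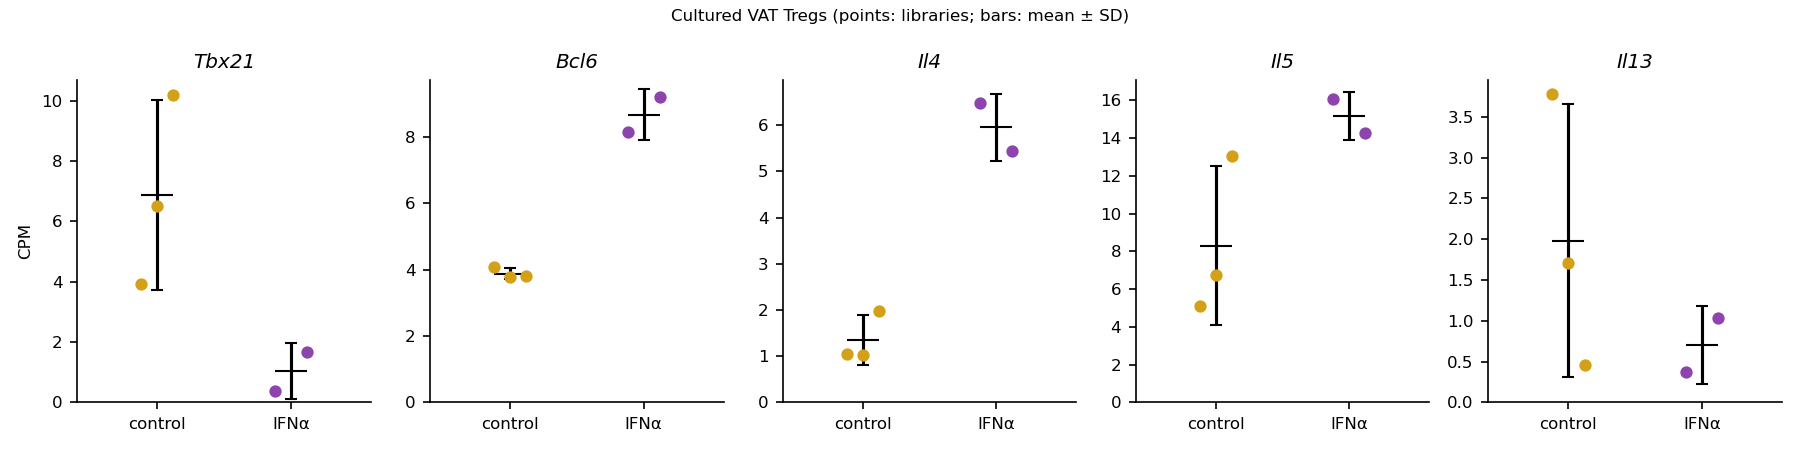
CPM of 5 members in control cultures (yellow, 3 libraries) and cultures with IFNα (purple, 2 libraries), with the mean and SD in black and all axes starting at 0. Tbx21 is lower and Bcl6, Il4 and Il5 are higher in both IFNα libraries than in every control, and Il13 overlaps.

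Libraries of 1 group differed more in Tbx21 and Il5 than in most genes of like level (mean CPM within a factor of 1.5). The within-group coefficient of variation (CV, the root mean square over groups of SD over mean) of Tbx21 in VAT was 76.9%, above that of 99.9% of 2582 genes of like level, whose median was 18.4%. In spleen it was 65.0%, above 97.0% of 1692 such genes. The CV of Il5 in VAT was 98.4% (above 99.8% of 1660 genes) and that of Ifng in VAT was 93.8% (above 98.1% of 1559 genes). Bcl6 in VAT, at 41.4%, was near the median of its like-level genes, 45.4%, and Stat3, Stat4 and Stat6 in VAT were at 9.93%, 16.3% and 9.56%. These values describe the libraries, and each holds 1000 sorted cells.

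**Figure D5:**
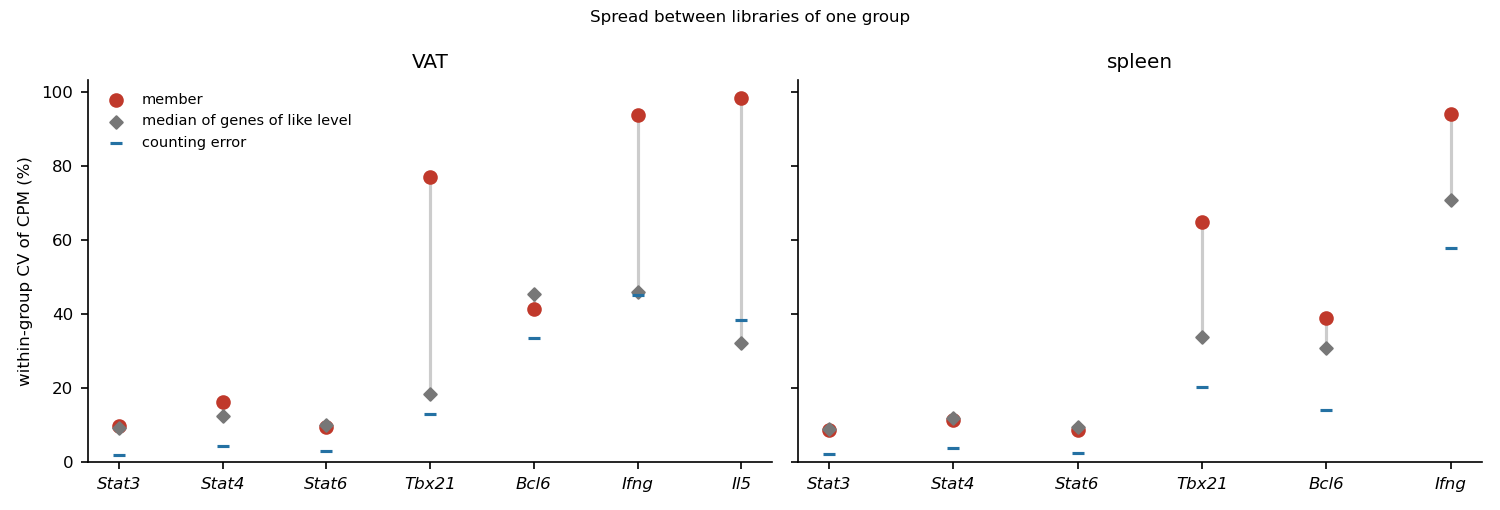
Within-group CV of CPM for each member above the floor in VAT (left) and spleen (right, same y axis), with the median of genes of like level (diamonds) and the CV that counting alone would give (dashes). Tbx21 in VAT stands at 76.9% against a median of 18.4%, while Stat3 and Stat6 in VAT, at 9.93% and 9.56%, lie close to theirs.

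Within groups, Stat6 and Ifng moved together in VAT. Over the deviations of 25 libraries from their group means on the log2 CPM scale, Pearson's r was 0.678 (permutation within groups, p = 5.2e-04, adjusted p = 0.0109 over 21 pairs) and Spearman's rho 0.669 (permutation p = 0.00333). Without the 2 libraries farthest from the median of Stat6, r was 0.687. The libraries farthest in Ifng were not left out in that way. Ifng had 0 counts in 2 of the 25 VAT libraries and at most 3 counts in 5, so its log2 values there are loosely set. In 26 spleen libraries r was -0.519 for the same pair (permutation p = 0.0234, adjusted p = 0.325 over 15 pairs), and the difference between tissues was not tested. Tbx21 and Ifng, factor and target in type 1 cells, had an r of 0.362 in VAT (Spearman's rho 0.355, permutation p = 0.216; adjusted p = 0.606 for r). No other pair in VAT and no pair in spleen passed an adjusted p under 0.05.

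Of 8170 genes with a median of at least 10 CPM in VAT, those most like each member over the 25 VAT libraries (Pearson's r of log2 CPM, across libraries that share tissue, depth and group) were the following. For Tbx21 they were Samd10 (0.764), Nfatc2 (0.702) and H1f0 (0.668), and all 3 had r of 0.521 to 0.741 in the 26 spleen libraries too. For Stat3 they were Skil (0.789), Traf1 (0.733) and Dgat2 (0.731), with spleen values of 0.036, -0.143 and 0.303. For Stat4 they were Klhl6 (0.761), Exoc6 (0.743) and Stat6 (0.726), with spleen values of 0.247, 0.182 and 0.092. For Stat6 they were Ypel5 (0.770), Stag2 (0.755) and Gimap6 (0.731), with spleen values of -0.281, 0.490 and 0.366. The other members were below 10 CPM in VAT.

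Other genes of each pathway were counted in lists. The lists were set by role, but with earlier results of these data known. The type 2 list holds Gata3 and Il1rl1, for which VAT Tregs are already known. Up to 4 called genes per list are named, those with the smallest p. In VAT against spleen without HFD, where 59.1% of all genes were called, 11 of 20 tested type 1 genes were called higher and 5 lower. They included Ifngr1, the receptor chain that binds interferon-γ (2067 CPM in VAT and 610 CPM in spleen), Tnf (134 and 45.1 CPM), Il18rap, a chain of the IL-18 receptor (155 and 26.8 CPM), and Lta, which encodes lymphotoxin-α (4.41 and 49.5 CPM). Of 15 type 2 genes 12 were higher and 1 lower. Areg, the growth factor amphiregulin, was at 1040 and 1.95 CPM, Il1rl1, the IL-33 receptor, at 735 and 29.1 CPM, Gata3 at 965 and 299 CPM, and Nfil3 at 91.8 and 17.3 CPM.

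Of 20 follicular helper genes 9 were higher and 9 lower in VAT, and the named ones were all lower: Lef1 (80.0 and 335 CPM), Id3 (12.3 and 277 CPM), Sh2d1a, the adaptor of SLAM receptors (23.6 and 155 CPM), and Il6st, the shared IL-6 receptor chain above STAT3 (119 and 425 CPM). This list also holds genes that restrain the follicular helper programme, such as Prdm1 and Id3. Its counts, here and below, therefore give no direction for the programme. The median log2 fold changes were 1.27, 1.93 and -0.24 for these 3 lists, against -0.04 over all genes. Of 17 other JAK and STAT pathway genes 8 were higher and 8 lower, among them Cish, a feedback inhibitor of cytokine signals (819 and 245 CPM). All 4 tested neighbours of the cytokine genes were called, Kif3a, Rad50 and Mdm1 higher and Irf1 lower.

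For diet in VAT, averaged over weeks, 7 of 18 tested follicular helper genes rose and 1 fell, against 4.20% of all genes called in either direction. Pdcd1, the inhibitory receptor PD-1, was at 742 CPM with HFD and 468 CPM with NCD, Sh2d1a at 52.4 and 22.8 CPM, the costimulator Icos at 781 and 648 CPM, and Il21r at 314 and 240 CPM. The 1 that fell, Irf4 (142 and 192 CPM), is named after its values were seen. Of 19 type 1 genes 1 rose and 1 fell, the latter being Tnf (83.1 against 141 CPM), and of 15 type 2 genes 2 rose, Nfil3 and Il2rg. Of 17 JAK and STAT pathway genes 4 rose, among them Jak2, Stat5b and Jak3, and 0 fell. In spleen, where 0.933% of all genes were called, 0 of 19 type 1 genes, 3 of 15 type 2 genes (Ccr8, Areg and Nfil3) and 2 of 20 follicular helper genes (Icos and Batf) were called, each of them higher with HFD.

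In culture, where 21.7% of all genes were called, 4 of 14 type 1 genes were higher and 2 lower with IFNα, led by the chemokine gene Ccl5 (107 against 21.2 CPM). Of 15 type 2 genes 4 were higher and 2 lower, with Gata3 at 1852 against 1438 CPM. Of 19 follicular helper genes 7 were higher and 3 lower, with Slamf6 at 716 against 287 CPM, Pdcd1 at 247 against 136 CPM and Id3 at 22.8 against 104 CPM. Of 17 JAK and STAT pathway genes 5 were higher and 2 lower. Stat2, a part of the type I interferon signal, was at 330 against 64.4 CPM, Stat5a at 227 against 123 CPM and Ptpn6, a phosphatase that restrains JAK signals, at 111 against 195 CPM.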

How the data were processed

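The deposited file holds raw counts per gene symbol for 56 libraries, made by the authors with STAR 2.7.3a and featureCounts on mm10, per the submitters' processing notes. Per the labels' protocols, 1000 cells gave poly(A) cDNA, 18 PCR cycles and paired reads of 38 bases. Groups came from titles, and 0 columns lacked a sample.

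Counts were fitted in R 4.3.3 with edgeR 4.0.16 (quasi-likelihood fits with 1 mean per group, the robust option, TMM factors and the filterByExpr filter) for VAT, spleen, both tissues and culture, with 14164, 14686, 15601 and 12604 genes. Calls used Benjamini-Hochberg adjusted p under 0.05 in each of 17 comparisons, and the fit was tested on simulated data. CPM is per library total, whereas fold changes use TMM. Overlap between groups was judged on CPM. Gene positions came from GENCODE M21 (52936 of 55011 symbols matched). The members and the lists were chosen with earlier results of these data known; members are always named, of each list at most the 4 called genes with the smallest p, and for likeness the 3 genes with the highest r. Alternatives were RLE, no filter, DESeq2 1.42.0, a replicate block, fitting the compared groups alone and leaving out each library; library totals alone and leaving out week 16 were added after seeing the data. Some genes of the lists are not reported here by name.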

Additional observations from a re-analysis of the deposited data

Results flagged for a closer look

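The mean effect of HFD differed between VAT and spleen for 2 of 7 tested members, by the test of that difference in edgeR. For Bcl6 the difference of log2 fold changes was 1.41 (1.09 over 11 HFD and 11 NCD libraries in VAT, -0.34 over 12 and 11 in spleen). For Stat6 it was 0.289 (0.18 in VAT and -0.12 in spleen). Within each tissue neither gene was called by edgeR with the filter on low counts, but Bcl6 in VAT was called by DESeq2 (adjusted p = 0.00908) and by edgeR with no filter (0.0346). Both calls of the difference were lost in some of the fits that left out 1 library, as given with the results. DESeq2 also called 2 members in this comparison.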

How the results depend on the processing

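Low counts limited Il4, Il13 and spleen Il5 to levels with no test. Over the alternatives that kept all libraries or left out a week, 662 of 685 values of single members kept their side of the threshold, 16 newly passed and 7 no longer did; 1 library left out gave 1392 of 1442, 11 and 39. The sign changed in 7 and 71 of these, uncalled in both fits. In VAT against spleen without HFD 7 members were called in each fit that left out a library. The cause of the changes below was not tested.

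With DESeq2 and with no filter, members called went from 0 to 1 and 1 (spleen mean of weeks), 0 to 1 and 1 (spleen week 4), and 1 to 2 and 2 (VAT mean). Leaving out week 16 gave 0 members and 122 genes for the VAT mean. Library totals alone gave 2 members at VAT week 16, and fitting only the groups compared gave 1. The week 16 difference between tissues went from 0 members to 1 with DESeq2, 1 with library totals and 1 with the replicate block (Stat6, 0.53).

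Genes called with DESeq2 and with no filter were, in spleen, 386 and 483 (mean, 137 in the main analysis), 37 and 85 (week 2, 4), 307 and 305 (week 4, 182), 1 and 26 (week 8, 0), 21 and 26 (week 16, 0) and 270 and 273 (NCD week 16 against week 0, 96). In VAT they were 70 and 162 (week 2, 8), 61 and 115 (week 4, 3), 423 and 465 (week 8, 189) and 342 and 399 (NCD week 16 against week 0). For the mean difference between tissues they were 631 and 797 (380). Fitting only the groups compared gave 16 and 1 genes in spleen at weeks 2 and 8, and 13, 34 and 789 in VAT at weeks 2, 4 and 16 (1309). It gave 830 for VAT NCD week 16 against week 0 and 378 for the week 16 difference (696). Library totals gave 4 genes at VAT week 2, 3 of them higher (8 of 8 in the main analysis). The share of higher calls under library totals was 48.4% for VAT NCD week 16 against week 0 (63.4% in the main analysis) and 68.6% for the week 16 difference (48.0%).

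Outside week 16, deviations of same-numbered libraries correlated at no more than 0.1, so replicate numbers showed little pairing there. Correlations over 0.1 were found in 0 of 10 VAT pairs and 1 of 11 spleen pairs. Across tissues they were found in 2 of 24 pairs, and in culture in 0 of 2 pairs. All were at week 16. The spleen pair had an r of 0.172, and the pairs across tissues, both with HFD, had 0.213 and 0.140. The other week 16 pairs were at -0.00570 to 0.0807. Whether week 16 libraries shared a replicate structure was not tested. The replicate block gave 21 genes at VAT week 2 and 5 at week 4. It also called Stat6 in VAT against spleen with HFD (-0.13).

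Leaving out 1 library gave 2 to 4 members in culture, 0 to 1 for the spleen mean, 0 to 3 for the VAT mean, 0 to 3 for the mean difference, 0 to 1 for the week 16 difference and 3 to 5 for VAT against spleen with HFD. Genes called ranged from 16 to 283 (spleen mean), 0 to 2 (week 2), 0 to 268 (week 4), 0 to 7 (week 8), 0 to 1 (week 16) and 7 to 126 (NCD week 16 against week 0). In VAT they ranged from 372 to 657 (mean), 2 to 54 (week 2), 0 to 6 (week 4), 37 to 248 (week 8), 643 to 1273 (week 16) and 1 to 37 (NCD week 16 against week 0). For the difference they ranged from 216 to 477 (mean) and 386 to 762 (week 16).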
